A study of Homo sapiens with 6 samples.

Results

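The genes described here encode proteins of the azurophil (primary) granule of myeloid precursors, together with CD34, a surface marker of blood stem and progenitor cells. The 9 members (MPO, ELANE, PRTN3, AZU1, CTSG, LYZ, SRGN, RNASE2 and CD34) were found by symbol through their Ensembl identifiers, and all 9 were among the 20263 genes of the deposited count table. They were measured by RNA-seq in MV4-11 cells, a human acute myeloid leukaemia line carrying an internal tandem duplication of FLT3 and a KMT2A-AFF1 fusion. The groups were venetoclax plus CSA (the combination, for which no doses of its own are labelled), venetoclax at 100 nM and CSA at 2.5 µM, each for 24 h with 2 libraries. Venetoclax inhibits the survival protein BCL2, and CSA is taken here as cyclosporin A, an inhibitor of calcineurin. The cells are a single established line whose genotype is labelled WT. The treatment field of all 6 libraries names gavage, a way of dosing animals, while the growth protocol describes cell culture, and groups were taken from the titles. No untreated library entered the comparisons. The labels do not state whether the 2 libraries of a group are separate cultures, and p-values then cover only the spread between these libraries, which may be technical.

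Azurophil granules are made at the promyelocyte stage, and the transcripts of proteins such as MPO and ELANE fall off as the cells mature. Neutrophil elastase (ELANE), proteinase 3 (PRTN3) and cathepsin G (CTSG) are serine proteases that are activated by the dipeptidyl peptidase CTSC and packed onto serglycin (SRGN), a proteoglycan. Azurocidin (AZU1) is their relative without protease activity, myeloperoxidase (MPO) makes hypochlorous acid, lysozyme (LYZ) cuts bacterial cell walls, and RNASE2 is a secreted ribonuclease best known from eosinophils. C/EBP factors, PU.1, RUNX1 and MYB are known regulators of these genes.

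AZU1 (GRCh38, chr19:825097-832018), PRTN3 (chr19:840960-848175) and ELANE (chr19:851014-856247) lie side by side on the plus strand of chromosome 19. CTSG lies at chr14:24573522-24576260 and RNASE2 at chr14:20955452-20956436. The remaining members were MPO (chr17:58269856-58280935), LYZ (chr12:69348341-69354234), SRGN (chr10:69088106-69104811) and CD34 (chr1:207880972-207911402). All 9 are protein-coding in GENCODE release 29, from which these coordinates were taken. Promoters from RefSeq were at hand for 5 members (AZU1, PRTN3, CTSG, RNASE2 and CD34), with no entry for MPO, ELANE, LYZ and SRGN. Of these, the 4 granule genes did not pass the edgeR test of the combination against CSA with 6 libraries, given below. Their promoters are printed without sorting by direction. Each is the 250 bases before the RefSeq start in GRCh38.p14, on the gene's strand, 5′ to 3′, with motif matches in capitals. The windows are chr19:827587-827836 for AZU1, chr19:840749-840998 for PRTN3, chr14:24576251-24576500 (minus strand) for CTSG and chr14:20955237-20955486 for RNASE2. The AZU1 window lies wholly inside the GENCODE span given above, and the last bases of the other windows reach into theirs. Upstream positions are therefore counted from the RefSeq start alone.
AZU1: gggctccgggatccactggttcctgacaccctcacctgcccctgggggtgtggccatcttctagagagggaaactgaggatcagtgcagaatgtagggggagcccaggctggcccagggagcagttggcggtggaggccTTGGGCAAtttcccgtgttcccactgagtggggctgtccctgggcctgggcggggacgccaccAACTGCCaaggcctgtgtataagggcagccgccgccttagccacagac
PRTN3: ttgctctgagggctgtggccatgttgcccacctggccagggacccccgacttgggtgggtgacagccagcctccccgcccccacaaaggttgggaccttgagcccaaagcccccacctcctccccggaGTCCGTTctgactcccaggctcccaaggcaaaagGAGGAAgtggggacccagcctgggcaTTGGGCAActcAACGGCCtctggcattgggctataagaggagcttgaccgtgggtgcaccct
CTSG: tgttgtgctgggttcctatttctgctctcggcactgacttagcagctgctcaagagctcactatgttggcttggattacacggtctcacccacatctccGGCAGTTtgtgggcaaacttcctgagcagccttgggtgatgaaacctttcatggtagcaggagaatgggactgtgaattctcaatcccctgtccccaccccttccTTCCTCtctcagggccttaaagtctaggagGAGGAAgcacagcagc
RNASE2: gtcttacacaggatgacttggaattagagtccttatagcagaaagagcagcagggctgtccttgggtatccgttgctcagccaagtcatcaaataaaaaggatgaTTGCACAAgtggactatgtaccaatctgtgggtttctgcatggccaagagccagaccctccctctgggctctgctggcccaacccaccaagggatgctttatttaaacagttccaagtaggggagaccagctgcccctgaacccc

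The motifs searched on both strands were TTNNGNAA for C/EBP, GAGGAA for PU.1, TGTGGT for RUNX and AACNGNC for MYB. They occurred in 33.2%, 23.6%, 11% and 26.9% of 35116 promoters of the same length. AZU1 and PRTN3 both held TTGGGCAA, at 111 to 104 bases upstream in AZU1 and 62 to 55 bases upstream in PRTN3. PRTN3 also held GAGGAA at 88 to 83 bases upstream, and CTSG held it at 16 to 11 bases upstream and on the other strand at 46 to 41. A MYB match was present in AZU1, PRTN3 and CTSG, and TTGCACAA in RNASE2. These matches describe the letters of the windows, and were tested neither for binding nor for a link to expression.

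Of the 6 libraries, with 26567900 to 30738957 counts, venetoclax replicate 2 stood apart. Of its counts 41.5% came from mitochondrially encoded genes, against 7.41% to 15.2% in the other 5, and its scaling factor was 0.657 against 1.02 to 1.12. It also differed from venetoclax replicate 1 by base composition: the median log2 difference was 0.42 over 4602 genes with under 45% GC and −0.66 over 1957 genes with 60% GC or more. The same medians were 0.06 and −0.10 within the combination, and 0.07 and −0.09 within CSA. Fitted values of the granule genes are therefore given with all 6 libraries and without venetoclax replicate 2.

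The line expressed most granule genes at high levels but not the progenitor marker. By TPM, a level per transcript length computed here from the counts, SRGN had 1812 to 4924 TPM and ranked 15 to 22 among all genes, above PRTN3 in 6 of 6 libraries. PRTN3 had 393 to 1965 TPM, RNASE2 502 to 1163, CTSG 195 to 1270, AZU1 157 to 1097 and LYZ 244 to 1187. Neighbours in this order did not separate: PRTN3 was above RNASE2 in 4 of 6 libraries, RNASE2 above CTSG in 4, CTSG above AZU1 in 5 and AZU1 above LYZ in 3. The lowest of each of these ranges was venetoclax replicate 2, the library with the high mitochondrial share. Without it SRGN had 4062 to 4924 TPM and LYZ 620.1 to 1187. ELANE, at 106 to 734 TPM, was below LYZ in 6 of 6 libraries.

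MPO stood far below the other granule genes. It had 2.68 to 9.69 TPM and ranked 8158 to 9338, and ELANE was 39.5 to 92.1 times higher in the same libraries. CD34 had no count in either combination library, 3 counts in venetoclax replicate 1 and none in venetoclax replicate 2, and none in either CSA library. The 3 counts correspond to 0.113 CPM (depth-scaled counts, here without other scaling), with an exact Clopper-Pearson 95% interval of 0.0233 to 0.330. In the libraries at 0 the limit that a count of 0 allows, set at 3 counts and not from that interval, was 0.0976 to 0.111 CPM. CD34 was not tested, so 8 of the 9 members entered the fits, and no difference in CD34 was detectable at this depth.

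The serine protease genes of chromosome 19 and AZU1 lay lower with the combination than with CSA in both libraries. In CPM after TMM scaling (trimmed mean of M-values), ELANE had 144 and 125 with the combination, 188 and 104 with venetoclax, and 206 and 188 with CSA. PRTN3 had 384 and 438 CPM with the combination, 614.5 and 430 with venetoclax, and 547 and 584 with CSA. AZU1 had 389 and 353 CPM with the combination, 519 and 267 with venetoclax, and 533 and 485 with CSA. In all 3 genes the combination libraries did not overlap those of CSA, while the venetoclax libraries lay far apart, with replicate 2 low. CTSG, the protease gene on chromosome 14, had 421 and 362.5 CPM with the combination, 358 and 256 with venetoclax, and 476 and 434 with CSA. Its order was thus CSA above the combination above venetoclax, without overlap between any pair of groups.

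MPO had 5.46 and 6.22 CPM with the combination, 9.32 and 9.02 with venetoclax, and 7.67 and 7.11 with CSA. Its 3 groups did not overlap, and the combination was the lowest. LYZ had 329 and 400.4 CPM with the combination, 572 and 412 with venetoclax, and 390.0 and 463 with CSA, so the combination lay below venetoclax and overlapped CSA. SRGN had 1666 and 1976 CPM with the combination, 1522 and 2112 with venetoclax, and 1397 and 1458 with CSA, which made CSA the lowest group. RNASE2 had 214 and 319 CPM with the combination, 237.5 and 362 with venetoclax, and 202 and 258 with CSA, and all its groups overlapped. In bulk RNA, fewer cells that express a gene and less of its RNA per cell cannot be told apart.

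**Figure D1:**
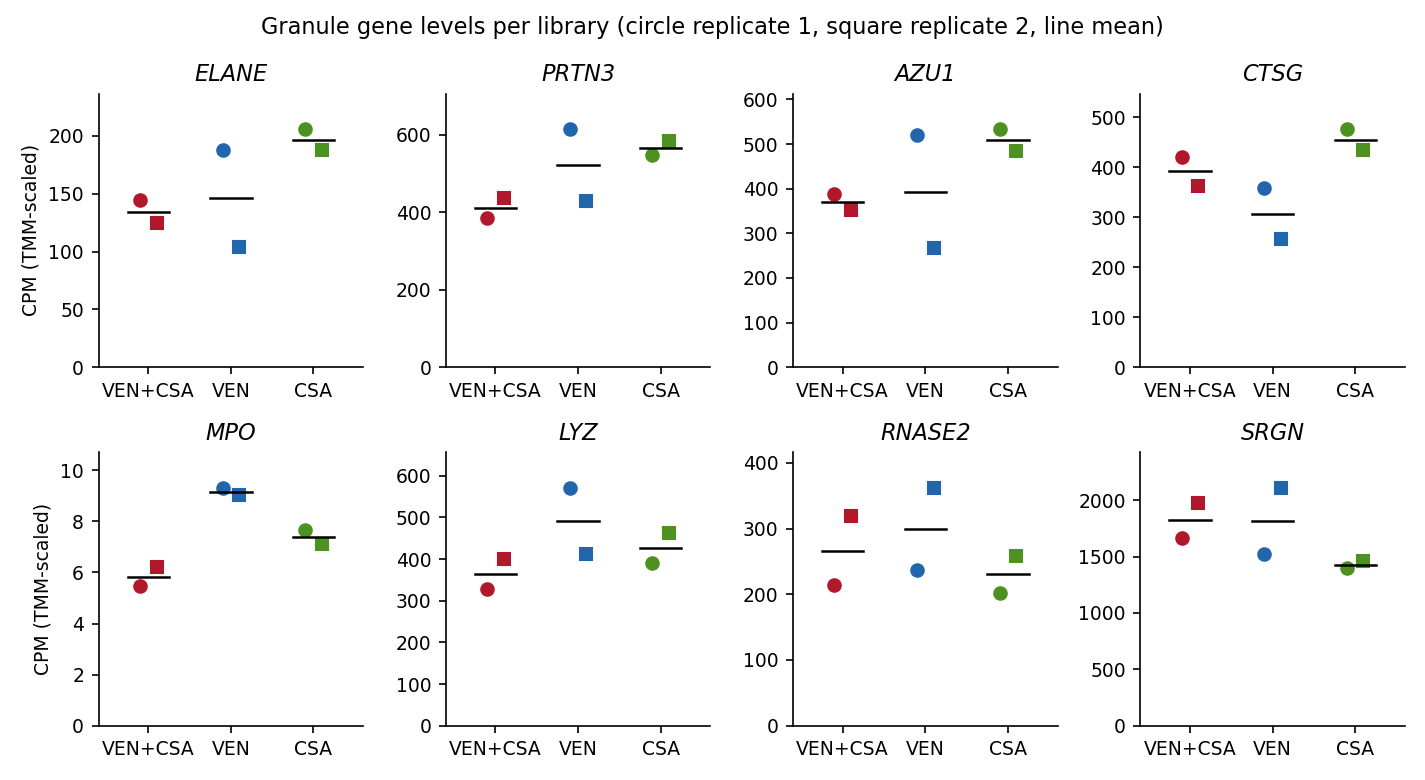
TMM-scaled CPM (y axis, linear, from 0) of the 8 tested granule genes in each library of venetoclax plus CSA (VEN+CSA), venetoclax (VEN) and CSA (circles replicate 1, squares replicate 2, lines group means). ELANE, PRTN3 and AZU1 lay lower in both VEN+CSA libraries than in both CSA libraries, and the VEN libraries are widely spread in AZU1, at 519 and 267 CPM.

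The combination was first compared with CSA alone, without knowing whether the CSA dose was the same in both. Of the 8 tested members 6 were lower and 2 higher (median log2 fold change −0.28), beside 0.00 over all 12690 genes tested. The log2 fold change was −0.55 (standard error, SE, 0.30) for ELANE, −0.46 (SE 0.21) for PRTN3 and −0.46 (SE 0.32) for AZU1, and the 95% interval of ELANE ran from −1.28 to 0.18. MPO was at −0.34 (SE 0.19), CTSG at −0.22 (SE 0.21) and LYZ at −0.23 (SE 0.22). SRGN, at 0.35 (SE 0.22), and RNASE2, at 0.21 (SE 0.30), had the opposite sign. By edgeR's quasi-likelihood test with Benjamini-Hochberg adjustment over all genes, 0 of 8 members passed (adjusted p 1.00 for each, and 0 at an unadjusted p under 0.05, against 3.64% of all genes), where 0% of all genes did. DESeq2 with 6 libraries also called 0 members in each of the 3 comparisons, where it called 0.473% of all genes here, 2.45% for the combination against venetoclax and 0.496% between the single agents. Both combination libraries lay below both CSA libraries in 5 members (MPO, ELANE, PRTN3, AZU1 and CTSG), against 23.7% of all genes tested, and above in SRGN alone, against 23.5%.

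Neither group of this comparison includes venetoclax replicate 2, so leaving it out could hardly change these values. It does change their errors, which come from a spread pooled over all groups. Without that library the values were nearly the same and their errors smaller, at −0.55 (SE 0.11) for ELANE, −0.46 (SE 0.10) for PRTN3, −0.46 (SE 0.10) for AZU1 and 0.35 (SE 0.11) for SRGN. Unadjusted p-values were under 0.05 for these 4 genes, against 12% of all genes, but 0 members passed the adjusted edgeR test (smallest adjusted p 0.239, ELANE), where 0.185% of all genes did. DESeq2 on the same 5 libraries, an alternative chosen after seeing the data, called ELANE (adjusted p 0.012), PRTN3 (adjusted p 0.0254) and AZU1 (adjusted p 0.024), where it called 1.98% of all genes. ELANE, PRTN3 and AZU1 are rich in GC, at 66.8%, 66.4% and 63.4%, and SRGN is poor in it, at 38.1%. Over all genes, with 6 libraries, the median of this comparison was −0.13 at 60% GC or more, with 69.2% of 1957 genes lower, and 0.10 under 45% GC. After removal of the libraries' GC trends, ELANE was at −0.40, PRTN3 at −0.31, AZU1 at −0.33 and SRGN at 0.23.

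The combination was next compared with venetoclax alone, with the same limit on doses. MPO differed most, with a log2 fold change of −0.65 (SE 0.20, 95% interval −1.13 to −0.17). LYZ was at −0.43 (SE 0.22), PRTN3 at −0.35 (SE 0.21), RNASE2 at −0.17 (SE 0.30), ELANE at −0.12 (SE 0.30), AZU1 at −0.08 (SE 0.32), SRGN at 0.00 (SE 0.22) and CTSG at 0.35 (SE 0.21). In all, 6 members were lower and 2 higher, with a median of −0.14 beside −0.01 over all genes. By edgeR 0 of 8 passed (smallest adjusted p 0.366, MPO, which alone had an unadjusted p under 0.05, against 10.8% of all genes), where 0% of all genes did. The combination libraries lay below both venetoclax libraries in MPO and LYZ, against 18.9% of all genes, and above both in CTSG, against 19.2%.

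This comparison depended on venetoclax replicate 2. Without it the members' median was −0.48, and the log2 fold change was −0.67 (SE 0.19) for MPO, −0.64 (SE 0.17) for LYZ, −0.58 (SE 0.12) for PRTN3, −0.48 (SE 0.14) for ELANE and −0.48 (SE 0.12) for AZU1. These 5 genes had unadjusted p-values under 0.05, against 15.5% of all genes, and 0 passed the adjusted edgeR test (smallest adjusted p 0.155, PRTN3), where 0.379% of all genes did. DESeq2 on these 5 libraries called PRTN3 and LYZ as lower, where it called 3.79% of all genes. SRGN, at 0.26, RNASE2, at 0.17, and CTSG, at 0.14, were higher. Without venetoclax replicate 1 instead, ELANE was at 0.38, AZU1 at 0.48 and CTSG at 0.62, and edgeR called AZU1 and CTSG as higher, where it called 26.4% of all genes. In that fit PRTN3 was at −0.06 (SE 0.13) and LYZ at −0.17 (SE 0.17), while MPO was at −0.63 (SE 0.19). The direction of ELANE and AZU1 and the size of PRTN3 and LYZ therefore turned on which venetoclax library was kept, and the value of MPO did not.

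Between venetoclax and CSA the members split evenly, with 4 higher and 4 lower and a median of 0.05 beside 0.00 over all genes. CTSG was at −0.57 (SE 0.21, 95% interval −1.09 to −0.05) and lay below CSA in both venetoclax libraries, against 19.9% of all genes tested. MPO, at 0.31 (SE 0.19), and SRGN, at 0.35 (SE 0.22), lay above in both, against 20.8%. The remaining values were 0.38 for RNASE2, 0.20 for LYZ, −0.11 for PRTN3, −0.37 for AZU1 and −0.43 for ELANE. By edgeR 0 of 8 members passed (smallest adjusted p 0.633, and 1, CTSG, at an unadjusted p under 0.05, against 4.8% of all genes), where 0% of all genes did, and without venetoclax replicate 2 again 0 passed (adjusted p 0.999 for each), where 0% of all genes did. Without that library CTSG was at −0.35 (SE 0.14), LYZ at 0.42 (SE 0.17), AZU1 at 0.02 and PRTN3 at 0.12. Without venetoclax replicate 1 instead, edgeR called ELANE (−0.93), AZU1 (−0.93) and CTSG (−0.83) as lower and SRGN (0.56) as higher, where it called 33.8% of all genes. The 3 comparisons share libraries pairwise, so their values are not independent of each other.

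**Figure D2:**
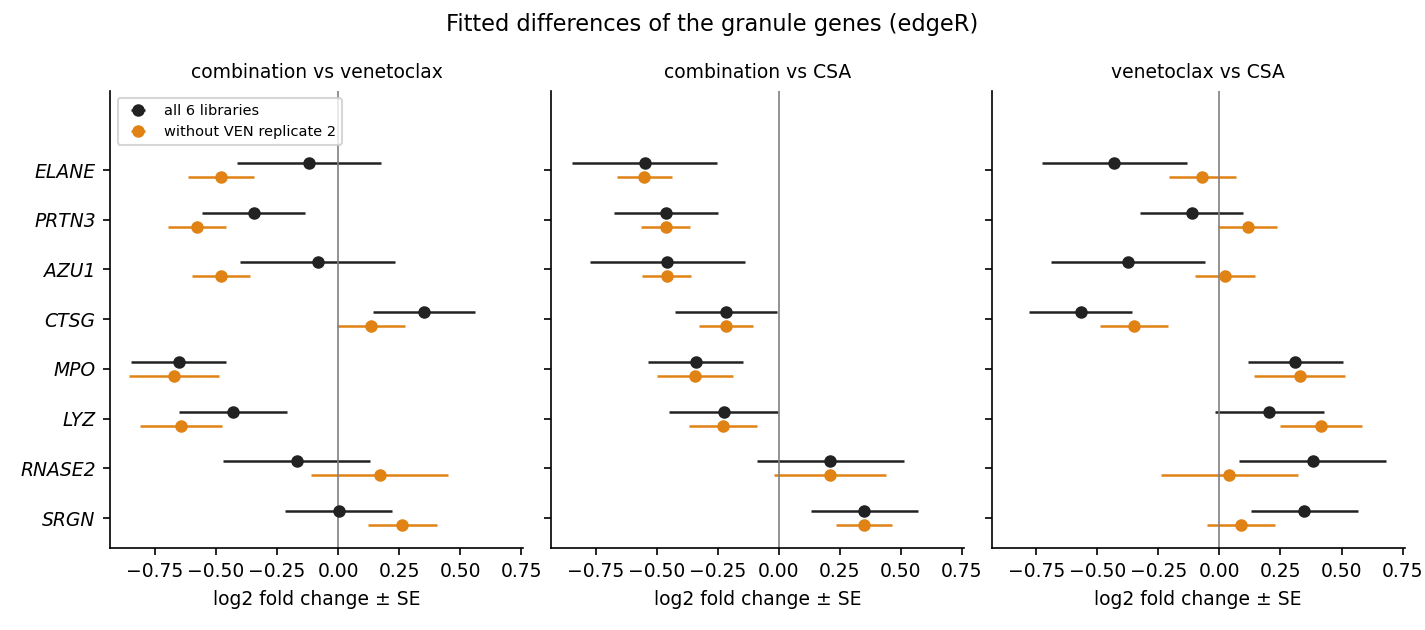
Log2 fold change (x axis, points, bars ± SE) of the 8 tested granule genes in the 3 comparisons, with all 6 libraries (black) and without venetoclax replicate 2 (orange). In combination against CSA, which includes no venetoclax library, the paired points coincide. Against venetoclax ELANE is at −0.12 with 6 libraries and −0.48 without that replicate.

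The difference between the venetoclax libraries had the sign of the all-gene trend with GC content in every tested member except LYZ. Replicate 2 minus replicate 1, on log2 CPM, was −0.86 for ELANE, −0.52 for PRTN3 and −0.96 for AZU1, each over 60% GC. CTSG (54.7% GC) was at −0.49 and MPO (58.5% GC) at −0.05. SRGN, at 38.1% GC, was at 0.47, RNASE2 (46.2% GC) at 0.61, and LYZ (41.5% GC) at −0.47, which is the opposite sign to other genes of its GC content. With the GC trend removed from all 6 libraries, the combination against venetoclax gave −0.84 for MPO, −0.54 for PRTN3, −0.28 for ELANE and −0.23 for AZU1.

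**Figure D3:**
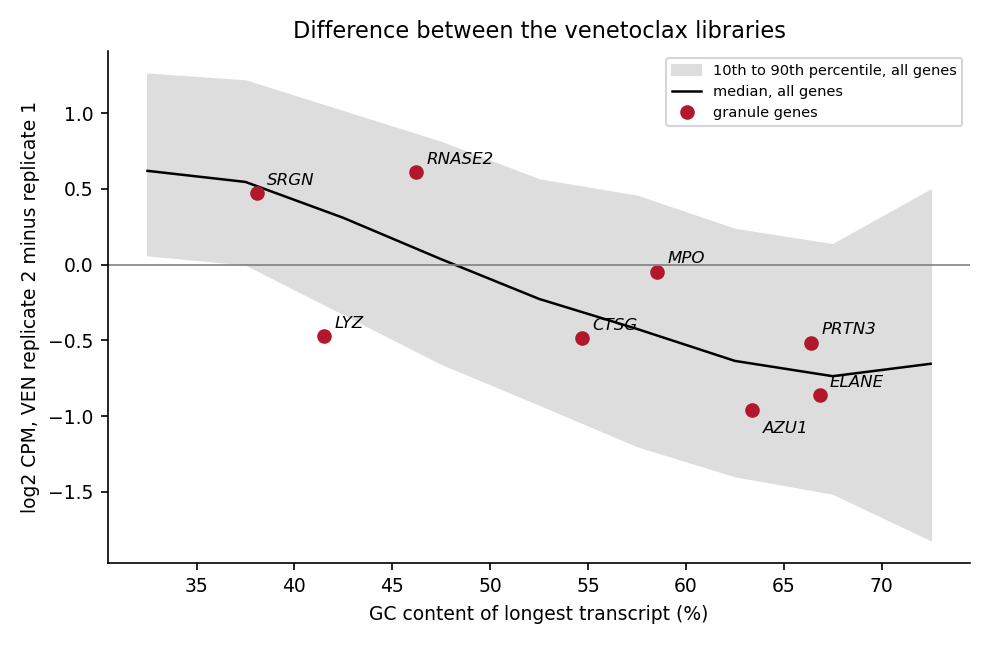
Log2 CPM of venetoclax replicate 2 minus replicate 1 (y axis) against the GC content of a gene's longest transcript (x axis, percent), with the median (line) and the 10th to 90th percentile (grey) of all tested genes. The granule genes (red) run from RNASE2 at 0.61 to AZU1 at −0.96, and LYZ lies below the grey band.

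Pairs of members differed in how alike they ran across the libraries. ELANE and AZU1 had the highest Pearson r of any pair, 0.989 over 6 libraries and 0.990 over the 5 without venetoclax replicate 2. ELANE and SRGN had the lowest, −0.984 and −0.971. SRGN was most like RNASE2 (0.865 and 0.738), and PRTN3 most like LYZ (0.823 and 0.856), as was MPO (0.740 and 0.883). CTSG was most like AZU1, at 0.809 over 6 libraries but 0.403 over 5. These libraries share the depth, GC and mitochondrial differences given above, so the coefficients are descriptions. Among 9853 other genes with at least 5 CPM, those closest to the members' mean profile were TUBB6, a tubulin (0.992), ARF5, a small GTPase (0.987), HSPB1, a small heat shock protein (0.982), SPN, the leukocyte sialoglycoprotein CD43 (0.974), and HNRNPUL2, an RNA-binding protein (0.971). That mean is over all 8 tested members, some of which ran in opposite directions, so it stands for no single member. The genes were taken as the highest of 9853 over 6 libraries, and no test was made.

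The genes around ELANE were set beside it, a choice made after the values were seen. Of the genes in the table, 20 lay at least in part within 200 kb of its start on either side, and 18 were tested, including PRSS57, a granule serine protease, and CFD, complement factor D. Against CSA the 5 granule genes of this stretch were all lower with the combination without venetoclax replicate 2, at −0.56 for PRSS57, −0.55 for ELANE, −0.46 for AZU1, −0.46 for PRTN3 and −0.38 for CFD. PRSS57 had 108 and 122 CPM with the combination, 161 and 95.2 with venetoclax, and 174 and 166 with CSA. CFD had 97.2 and 79.2 CPM with the combination, 112.5 and 86.7 with venetoclax, and 119 and 110 with CSA. The other 13 genes ran from −0.44 for PLPPR3, a phospholipid phosphatase-related membrane protein, to 0.05 for R3HDM4, with 11 lower and a median of −0.23 in the fit of 6 libraries. The 5 granule genes had 63.4% (AZU1) to 67.7% GC (PRSS57), and the other 13 had 56.1% (CNN2) to 71.3% (PLPPR3). Over all genes with 60% GC or more, 68.8% of 2006 were lower against CSA without venetoclax replicate 2 (median −0.13). The part of GC content in the values of this stretch was not tested. With 6 libraries no gene of the stretch passed the adjusted test, where 0% of all genes did. No test of the granule genes against their neighbours was made.

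**Figure D4:**
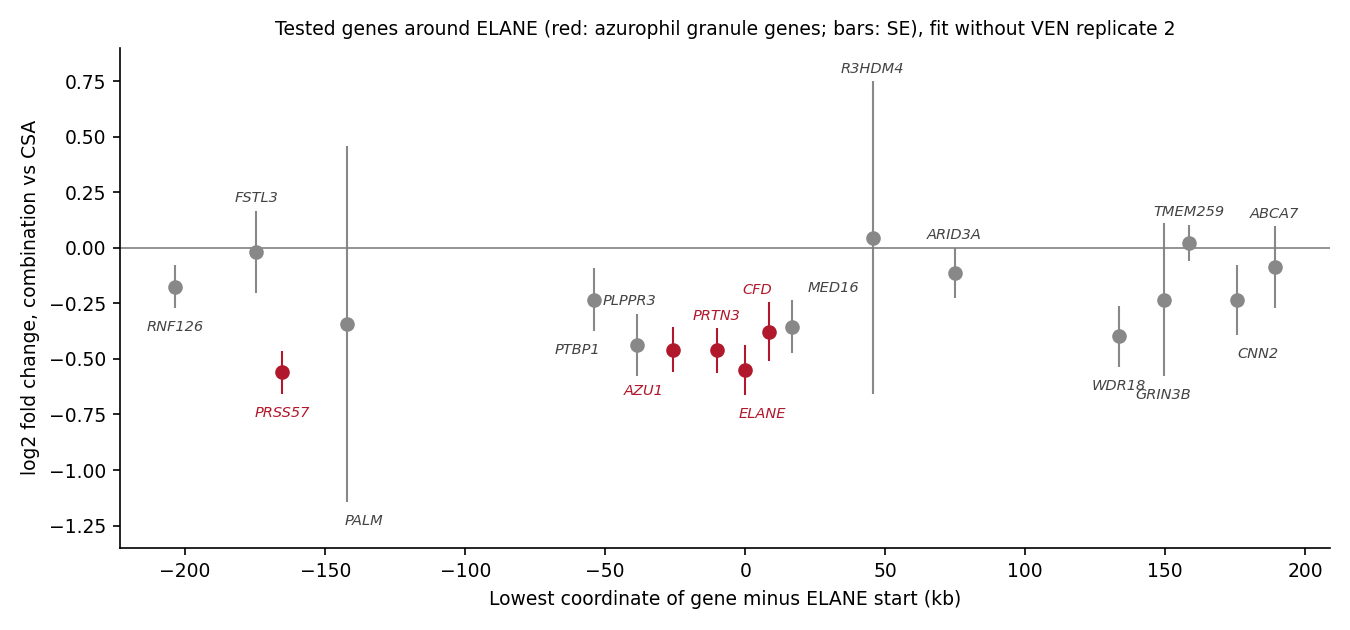
Log2 fold change of combination against CSA without venetoclax replicate 2 (y axis, bars ± SE) for the 18 tested genes by their lowest coordinate minus that of ELANE (x axis, kb). Granule genes (red) lie between −0.56 and −0.38, and the other genes (grey) between −0.44 and 0.05.

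The other genes listed for azurophil granules, some of them lysosomal proteins such as LAMP1, did not share one direction. Of 18 listed, 15 were tested, and DEFA1, DEFA3 and DEFA4, the defensins of the neutrophil azurophil granule, had no count in any library. Against CSA 7 of the 15 were higher and 8 lower with the combination (median −0.02), and against venetoclax 11 were higher and 4 lower (median 0.18, and 0.03 without venetoclax replicate 2). By edgeR with 6 libraries 0 passed, where 0% of all genes did. At an unadjusted p under 0.05 there were 1 against CSA, beside 3.64% of all genes, and 2 against venetoclax, beside 10.8%. MAN2B1, a lysosomal mannosidase, had 367 and 367 CPM with the combination, 490 and 355 with venetoclax, and 452 and 453 with CSA. LAMP1 is a membrane protein of lysosomes, and its place in azurophil granules was not tested. It had 248 and 243 CPM with the combination, 205 and 194 with venetoclax, and 219 and 212 with CSA, and so lay above both single agents. CD63, the tetraspanin of the azurophil membrane, had 126 and 123 CPM with the combination, 94.6 and 59.6 with venetoclax, and 101 and 115 with CSA. FUCA1, a lysosomal fucosidase, had 6.99 and 7.52 CPM with the combination, 2.98 and 3.29 with venetoclax, and 4.33 and 3.15 with CSA.

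Genes that process, sort or inhibit the granule proteases gave 0 calls by edgeR in every comparison with 6 libraries, where 0% of all genes were called. CTSC, which activates the proteases, had 268 and 265 CPM with the combination, 274 and 263 with venetoclax, and 265 and 280.0 with CSA. Of 14 genes for processing and sorting, 6 were higher and 8 lower against CSA (median −0.02). HAX1, an anti-apoptotic mitochondrial protein mutated in congenital neutropenia, had 89.6 and 89.96 CPM with the combination, 53.7 and 53.6 with venetoclax, and 67.3 and 76.4 with CSA. Of 7 tested inhibitors 4 were higher and 3 lower against CSA (median 0.06). SERPINB1, an inhibitor of elastase and proteinase 3, had 81.9 and 77.6 CPM with the combination, 69.7 and 71.2 with venetoclax, and 76.7 and 76.6 with CSA. SERPINB8 had 26.3 and 24.1 CPM with the combination, 41.8 and 38.3 with venetoclax, and 34.97 and 41.0 with CSA.

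Of the 5 tested genes of later granules, 0 passed edgeR's test with 6 libraries, where 0% of all genes did. At an unadjusted p under 0.05 there were 3 against CSA, beside 3.64% of all genes, and 3 against venetoclax, beside 10.8%. CHI3L1, a chitinase-like protein of specific granules that macrophages also make, had 371 and 414 CPM with the combination, 150.1 and 160.3 with venetoclax, and 169 and 176.5 with CSA. Its log2 fold change was 1.34 against venetoclax and 1.19 against CSA with 6 libraries, where it did not pass edgeR (adjusted p 0.0945 and 0.232). Without venetoclax replicate 2, which leaves 1 venetoclax library, it was 1.39 and 1.18. Of the 14 specific and gelatinase granule genes, 5 had no count in any library and 5 were tested, with 3 higher and 2 lower against CSA. CYBB, the large subunit of the phagocyte oxidase, had 7.14 and 8.32 CPM with the combination, 6.10 and 7.05 with venetoclax, and 4.197 and 4.232 with CSA. CYBA, its small subunit, had 362 and 229 CPM with the combination, 315 and 109.5 with venetoclax, and 386 and 289 with CSA.

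Progenitor markers other than CD34 were divided. Of 18 listed, 13 were tested, with 7 higher and 6 lower against CSA (median 0.02) and 6 higher and 7 lower against venetoclax (median −0.01). By edgeR with 6 libraries 0 passed, where 0% of all genes did. At an unadjusted p under 0.05 there were 3 against CSA, beside 3.64% of all genes, and 4 against venetoclax, beside 10.8%. FLT3, the receptor kinase, had 894 and 861 CPM with the combination, 838 and 926 with venetoclax, and 860.4 and 871 with CSA. SOX4, a transcription factor of progenitors, had 46.8 and 43.7 CPM with the combination, 68.4 and 60.9 with venetoclax, and 58.96 and 59.2 with CSA. GATA2, a stem cell factor, and CLEC12A, a myeloid lectin of leukaemic progenitors, likewise lay below both single agents, at log2 fold changes of −0.45 and −0.45 against CSA. In the other direction ITGA6, an integrin subunit, had 2.16 and 2.25 CPM with the combination, 0.949 and 1.59 with venetoclax, and 0.992 and 1.26 with CSA. CD38, a surface ectoenzyme, had 3.18 and 3.85 CPM with the combination, 2.30 and 4.24 with venetoclax, and 2.21 and 2.43 with CSA. Of the 13 tested markers, 4 lay above and 6 below CSA in both combination libraries, against 23.5% and 23.7% of all genes tested. IGLL1, the surrogate light chain, had 0.36 and 0.291 CPM with the combination, 1.86 and 1.38 with venetoclax, and 1.85 and 1.83 with CSA, a low level throughout.

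The transcription factors that regulate granule genes were all tested, with 8 of 15 higher and 7 lower against CSA (median 0.01). By edgeR with 6 libraries 0 passed, where 0% of all genes did. At an unadjusted p under 0.05 there were 1 against CSA, beside 3.64% of all genes, and 3 against venetoclax, beside 10.8%. CEBPB had 49.5 and 55.98 CPM with the combination, 32.9 and 25.9 with venetoclax, and 34.8 and 38.3 with CSA. SPI1, which encodes PU.1, had 259 and 212 CPM with the combination, 193 and 196 with venetoclax, and 282 and 279 with CSA. MYB had 418 and 531 CPM with the combination, 445 and 1147 with venetoclax, and 408 and 464 with CSA, and RUNX1 had 280.0 and 390 CPM with the combination, 287 and 1277 with venetoclax, and 301 and 350.2 with CSA. In both, venetoclax replicate 2 was the library that stood apart.

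**Figure D5:**
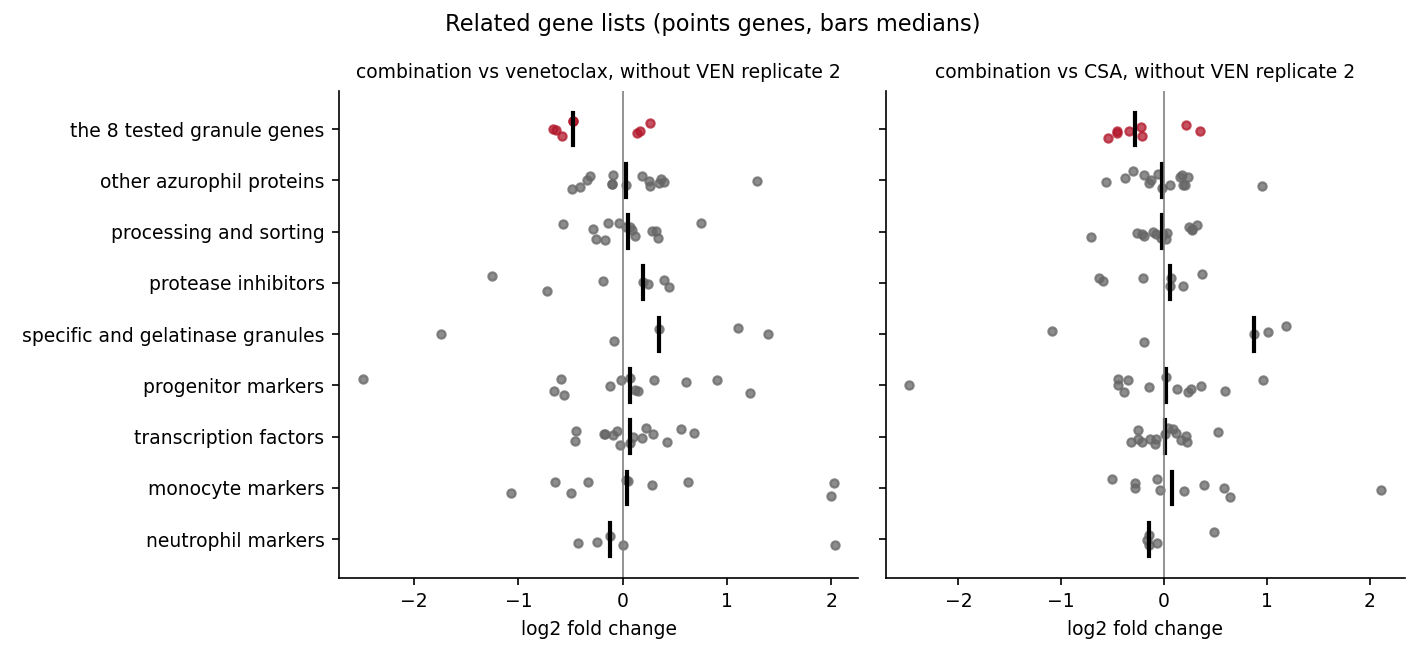
Log2 fold change (x axis) of each tested gene of 9 lists, combination against venetoclax (left) and against CSA (right), both without venetoclax replicate 2, with black bars at the list medians. The 8 granule genes (red) have medians of −0.48 and −0.29, and the list of other azurophil proteins, which includes lysosomal proteins, 0.03 and −0.02.

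Markers of other cell types are given for the makeup of the cultures. Of 17 monocyte markers 16 had a count, with summed levels of 310 to 323 CPM with the combination, 271 to 281 with venetoclax and 276 to 293 with CSA, and CD14 did not exceed 0.407 CPM. Of 10 tested, 5 were higher and 5 lower against CSA (median 0.08), and 6 higher and 4 lower against venetoclax (median 0.14). MS4A7, a macrophage membrane protein, had 20.3 and 22.2 CPM with the combination, 5.32 and 17.3 with venetoclax, and 14.05 and 14.4 with CSA. Its log2 fold change against venetoclax was 0.92 with 6 libraries. It was 2.00 without venetoclax replicate 2, which leaves 1 venetoclax library, the one at 5.32 CPM. Of 10 neutrophil markers 7 had a count, with sums of 193 to 206 CPM with the combination, 192 to 206 with venetoclax and 211 to 215.5 with CSA. Of 5 tested, 1 (S100P) was higher and 4 lower against CSA (median −0.15), and 3 higher and 2 lower against venetoclax (median 0.04). Within that list S100P, a calcium-binding protein, had 12.5 and 8.98 CPM with the combination, 2.64 and 1.70 with venetoclax, and 8.69 and 6.66 with CSA, at log2 fold changes of 2.29 against venetoclax and 0.49 against CSA that did not pass edgeR. Eosinophil and basophil markers summed to 6.72 to 7.20 CPM with the combination, 8.49 to 9.79 with venetoclax and 8.66 to 12.6 with CSA, with 5 of 10 at 0. B cell markers summed to at most 5.29 CPM, megakaryocyte markers to 10.6 and erythroid markers to 11.1, in any library. T and NK cell markers summed to 517 to 587 CPM with the combination, 353 to 523.5 with venetoclax and 541 to 544 with CSA, nearly all from CD4, which monocytic cells also carry, with CD3D, CD3E and CD3G at 0. Outside the granule genes, 0 genes of these cell type lists passed edgeR with 6 libraries, where 0% of all genes did. The part of the monocyte and neutrophil sums in the granule values was not tested.

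Reads of a few members could belong to other genes. Overlaps were taken between whole gene spans, introns included, and whether the shared bases lie in exons was not tested. None of the overlapping genes was in the count table. SRGN overlaps RF00017, a small RNA on the same strand, by 299 bases. LYZ overlaps an antisense RNA, AC020656.1, by 733 bases and CD34 overlaps AL356275.2 by 1411 bases. The use of strand in counting is not stated, so any counted reads from these shared bases cannot be told apart. The longest identical stretch between RNASE2 and RNASE3 was 67 bases, between MPO and EPX 44, and between ELANE and PRTN3 25, against reads of 150 bases.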

How the data were processed

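RNA-seq of 6 libraries (2 per group) was analysed. The deposited table holds raw gene counts in whole numbers. STAR, RSEM, DESeq2 and build hg38 are named, per the submitters' processing notes, without versions or roles. Of 20263 identifiers 20148 had a symbol and 20224 matched GENCODE release 29; 2 columns of no labelled sample were not used. Genes passing filterByExpr (12690, or 12940 without venetoclax replicate 2) were scaled by TMM and tested two-sided with edgeR 4.0.16 (R 4.3.3; robust glmQLFit, glmQLFTest) in 1 fit by group with 3 residual degrees of freedom, with Benjamini-Hochberg adjustment and a threshold of 0.05. TPM was computed here from union exon lengths. A library whose partner was left out was taken to vary as much as the replicated groups. Tests were checked on simulated counts. The members and all gene lists were chosen with earlier results of these data known. Besides the members, the text could name called genes, up to 4 of the smallest p and the 3 of highest CPM per list. Genes named outside this rule (CD14, CD3D, CD3E, CD3G, DEFA1, DEFA3, DEFA4, CFD, ITGA6, CD38 and the neighbours of ELANE) were chosen after their values were seen. Alternatives were other scalings, filters and tools (DESeq2 1.42.0, limma-voom 3.58.1), a replicate block and leaving out each library. Chosen after seeing the data were a correction for each library's GC trend (loess, span 0.3) and 2 fits without venetoclax replicate 2 (with the GC trend removed, or by DESeq2). The interval and the limits given for CD34 cover counting error only, and intervals of log2 fold changes come from the edgeR fit.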

Additional observations from a re-analysis of the deposited data

How the results depend on the processing

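Members called stayed at 0 with every alternative run in the 3 comparisons, apart from fits leaving out 1 venetoclax library. Leaving out each library in turn gave 0 to 2 members called in combination against venetoclax, 0 in combination against CSA and 0 to 4 in venetoclax against CSA. DESeq2 without venetoclax replicate 2 called 2 against venetoclax (PRTN3 −0.58, LYZ −0.65) and 3 against CSA (ELANE, PRTN3, AZU1). Of the member values under alternatives, 423 kept direction and side of the threshold, 10 passed it in the same direction and 23 changed sign. Of these 23, AZU1 without venetoclax replicate 1, in combination against venetoclax, also passed it.

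Over all genes edgeR called 0 in each comparison. In combination against venetoclax (1372 genes at an unadjusted p under 0.05) the count was 15 without a filter, 311 by DESeq2, 42 with the GC trend removed, 73 with the GC trend removed and without venetoclax replicate 2, 490 by DESeq2 without that replicate, and 0 to 3426 leaving out each library (3426 without venetoclax replicate 1, 49 without replicate 2). In combination against CSA (462 at an unadjusted p under 0.05) it was 4 without a filter, 60 by DESeq2, 1 by limma-voom, 43 by limma-voom with library quality weights, 24 from its 4 libraries alone, 26 with the GC trend removed and 256 by DESeq2, both without venetoclax replicate 2, and 0 to 24 leaving out each library. In venetoclax against CSA (609 at an unadjusted p under 0.05) it was 2 without a filter, 63 by DESeq2, 107 by DESeq2 without venetoclax replicate 2, and 0 to 4385 leaving out each library (4385 without venetoclax replicate 1). The cause was not tested.

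Leaving out each library gave a members' median of −0.48 to −0.12 in combination against venetoclax, −0.38 to −0.28 in combination against CSA and −0.225 to 0.094 in venetoclax against CSA. In combination against venetoclax it was −0.37 with the GC trend removed and −0.48 by DESeq2, both without venetoclax replicate 2. With scaling by library size alone the median of all genes was 0.26, −0.04 and −0.31, and that of the members 0.066 in combination against venetoclax and −0.21 in venetoclax against CSA.

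In combination against venetoclax the sign changed with library size alone for ELANE (0.055), AZU1 (0.077) and RNASE2 (0.17), each below the median of all genes on that scale. Leaving out each library it ran from −0.48 to 0.38 for ELANE, −0.48 to 0.48 for AZU1, −0.21 to 0.26 for SRGN and −0.48 to 0.17 for RNASE2. Without venetoclax replicate 2 RNASE2 was at 0.17 by DESeq2 and 0.145 with the GC trend removed. In combination against CSA only RNASE2 changed sign, from −0.105 to 0.471 leaving out each library. In venetoclax against CSA library size alone gave −0.049 for LYZ, −0.027 for SRGN and −0.009 for RNASE2, above the median of all genes. Leaving out each library gave −0.397 to 0.12 for PRTN3, −0.933 to 0.022 for AZU1 and −0.054 to 0.416 for LYZ. With the GC trend removed PRTN3 was at 0.23, and without venetoclax replicate 2 PRTN3 was at 0.12 by DESeq2 and 0.13 with the GC trend removed, and AZU1 at 0.025 and 0.052.

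The labels do not say that replicate numbers mark a shared culture or day. Same-numbered libraries had correlated deviations from their group means (r 0.246, 0.162 and 0.19), and with the replicate number as a block 0 genes and 0 members were called in each comparison (members' medians −0.12, −0.28 and 0.04). The block lowered the SE of RNASE2 between venetoclax and CSA to 0.148, with adjusted p 0.406 by edgeR. With 2 libraries a group and 3 residual degrees of freedom the smallest adjusted p of any gene was 0.058, 0.129 and 0.146. CD34, with 3 counts in all, is below what this depth can compare.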
